A study of Homo sapiens with 29 samples.

Results

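Integrins are pairs of an α and a β chain that span the membrane, hold laminin, fibronectin or collagen outside the cell and, through adaptor proteins, hold actin inside it. The genes described here are 45 members of this attachment machinery, taken by name from a list of integrin chains, laminin chains, fibronectin, type IV collagen chains and the structural proteins of focal adhesions, out of 35579 genes in the table. All 45 were found. A mean of at least 10 TPM (the share of a library's transcripts, scaled to a fixed total and already divided by transcript length) over all libraries was reached by 39 of them, and these are the members tested. ITGA1, ITGB3, ITGB8, COL4A1, COL4A2 and TNS1 stayed under that level and are given by their values alone.

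RNA came from PC9, a lung adenocarcinoma cell line with mutant EGFR, in 10 lines: the parental cells (PAR), an AXL knockout derived from them (KO), and knockout cells given back AXL in its wild-type form (WT), in a kinase-dead form (KD), or in forms in which one tyrosine was changed to phenylalanine (Y634F, Y643F, Y698F, Y726F, Y750F and Y821F). Each line was harvested untreated (UT), after 24 h with 1 μM of the EGFR inhibitor erlotinib (E), and, except for KO, after erlotinib together with 300 ng/mL of the AXL-activating antibody AF154 (EA), which gave 10, 10 and 9 libraries. Only 1 library was made per line and treatment, so the lines served as replicates. The receptor was delivered by lentivirus, and KO with EA was not analysed here. By the study's estimate only a minority of the cells in the transduced lines expressed AXL, and the rest were knockout cells.

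TPM sums to the same total in every library, so depth is unknown and all values are relative to the rest of a library's RNA. A smaller amount of a transcript per cell and fewer cells that make it cannot be told apart in these bulk samples. The epithelial label held in all 29 libraries, with EPCAM between 286 and 439 TPM and KRT7 between 3164 and 6468 TPM. Single markers moved apart with E. EPCAM was lower (286 to 322 TPM against 385 to 439 TPM untreated), as were KRT8 and KRT18. KRT7 was higher (5463 to 6468 TPM against 3164 to 3565 TPM untreated), as were CDH1, KRT19 and CLDN4. For none of these did the untreated and E ranges overlap. The 3 blood markers together did not exceed 1.003 TPM in any library, and CD3E was listed at 0 throughout. The 4 endothelial markers summed to between 5.51 and 10.2 TPM untreated and between 2.17 and 6.85 TPM with E. PECAM1 made up most of the untreated sum, at 4.99 to 9.60 TPM, and was at 1.03 to 3.84 TPM with E. CDH5 was at 0.280 to 2.37 TPM untreated and 0.255 to 2.80 TPM with E, while VWF and KDR stayed at or under 0.755 TPM. The 3 mesenchymal markers VIM, CDH2 and ZEB1 summed to between 27.4 and 59.7 TPM untreated and between 29.9 and 60.1 TPM with E. Within that sum VIM and CDH2 moved in opposite directions, with overlapping ranges. VIM lay between 17.9 and 44.8 TPM untreated and between 13.1 and 30.5 TPM with E. CDH2 lay between 7.81 and 12.7 TPM untreated and between 10.8 and 27.3 TPM with E. Of the fibroblast markers only COL1A1 was above 3.54 TPM, and the 5 of them together lay between 16.2 and 36.6 TPM untreated and between 37.9 and 62.6 TPM with E. COL1A1 carried that difference. The part of these markers in the results below was not tested. AXL mRNA was 92.4 and 79.3 TPM in the untreated and E libraries of KO, against 217 to 852 TPM elsewhere, and it does not measure the edit in the DNA.

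In epithelial cells the α6β4 and α3β1 integrins hold the laminin of the basement membrane, α6β4 in hemidesmosomes that connect to keratins. The αV integrins and α5β1 read the RGD sequence of fibronectin and related ligands and sit in focal adhesions. There talin and kindlin bind the β chain's tail, ILK, PINCH and parvin form one complex, tensin, filamin and α-actinin reach actin, and zyxin-type LIM proteins gather where tension is high. Nearly every step is served by more than one paralog.

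The first question was what EGFR inhibition did to these transcripts. With E, 33 of the 39 members passed a Benjamini-Hochberg adjusted p of 0.05 in limma with the line as a block, where 79.0% of the 9085 genes tested did so. Of them 22 were higher with E, against 36.4% of all genes, and 11 were lower, against 42.6%. The median change over the 39 members was 0.27 on the log2(TPM + 1) scale, which shrinks changes at low levels, beside -0.04 over all genes. Of 49 further adhesion and matrix genes tested, 32 were higher and 16 lower, with a median of 0.23. The lowest and highest libraries of the 2 treatments were fully apart for 20 of the 39 members, 11 higher and 9 lower, against 36.5% of all genes.

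**Figure D1:**
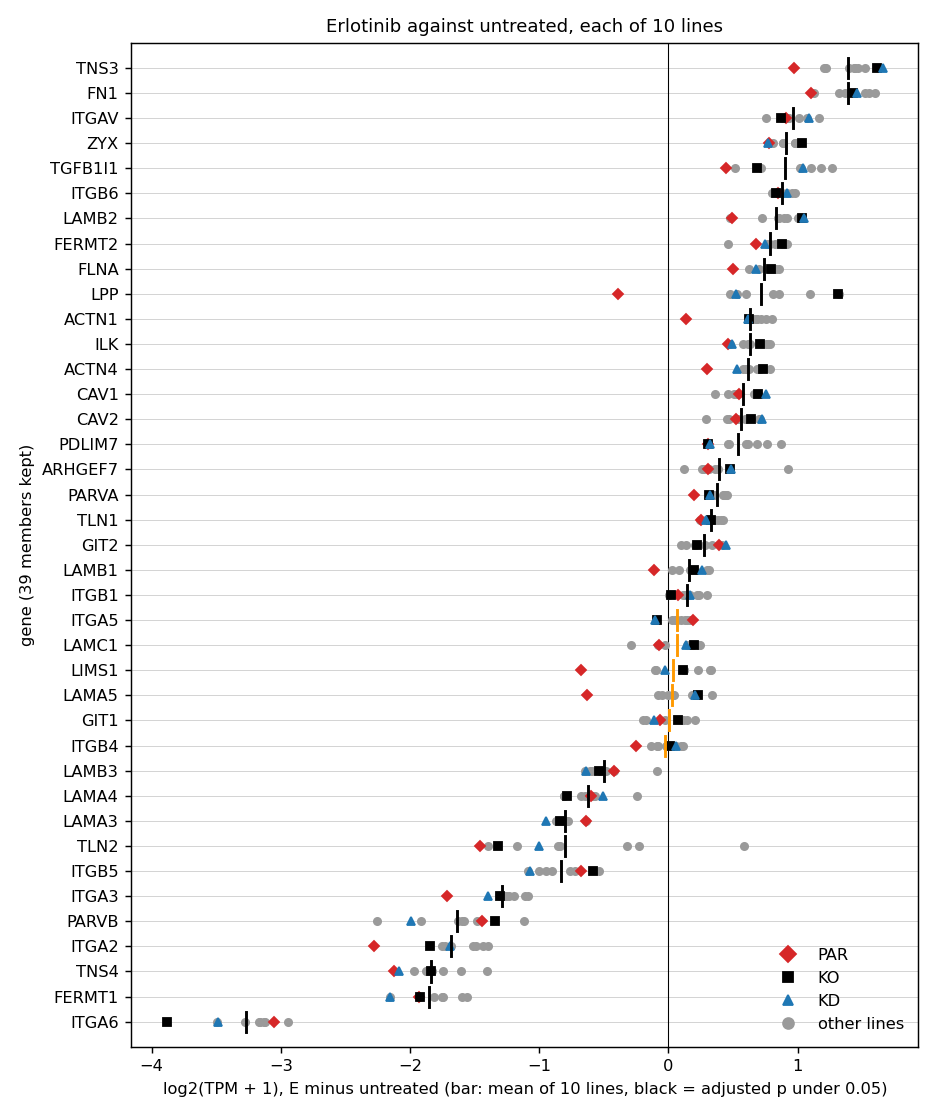
Change from untreated to E in each of the 10 lines (points, log2(TPM + 1) scale) for the 39 members, ordered by the mean change (vertical bar, black where the adjusted p is under 0.05, orange where it is not). ITGA6 lies furthest to the left at -3.27, TNS3 and FN1 furthest to the right at 1.39, and PAR (red) is the only line to the left of 0 for LPP and LAMB1.

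Among the 5 α chains tested, α6, α3 and α2, chains of laminin and collagen receptors, fell, αV rose and α5 did not pass the test. ITGA6 encodes the α6 chain (ENSG00000091409, chromosome 2 from 172427354 to 172506282, plus strand, GENCODE release 29 on GRCh38). Untreated it ranged from 235 TPM in Y643F over a median of 260 TPM to 325 TPM in PAR, the highest α chain of the list. With E it ranged from 16.9 TPM in KO over a median of 27.6 TPM to 38.3 TPM in PAR. No library of one treatment came near the other, and each line kept between 6.44% (KO) and 12.6% (Y643F) of its own untreated level. The mean change of -3.27 (SE 0.07, adjusted p = 6.87e-14, lower in 10 of 10 lines) was the largest of all members and corresponds to a 9.66-fold lower level. After E the order of the lines began with KO at 16.9 TPM and KD at 21.6 TPM, the lines without AXL kinase activity, and their gaps to Y821F at 23.1 TPM have no replicate error. Relative to their own untreated levels KD and Y821F were alike, with 8.54% and 8.52% kept.

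ITGA2, the collagen-binding α2 chain (ENSG00000164171, chromosome 5, 52989326 to 53094779, plus strand), lay between 118 and 175 TPM untreated with a median of 156 TPM, and between 23.6 and 62.1 TPM with E with a median of 49.7 TPM. It fell by 1.68 (SE 0.07, adjusted p = 1.67e-11), in 10 of 10 lines. PAR was the lowest line under both treatments. ITGA3, the α3 chain of a laminin receptor (ENSG00000005884, chromosome 17, 50055968 to 50090481, plus strand), went from 108 to 162 TPM (median 126) down to 43.3 to 59.0 TPM (median 52.2), a change of -1.29 (SE 0.05, adjusted p = 1.14e-11) in 10 of 10 lines.

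ITGAV, the αV chain of fibronectin and latent TGF-β receptors (ENSG00000138448, chromosome 2, 186590065 to 186680901, plus strand), rose from 27.5 to 40.1 TPM (median 33.6) up to 55.9 to 82.9 TPM (median 66.1), a change of 0.96 (SE 0.04, adjusted p = 3.17e-11) in 10 of 10 lines. ITGA5, the α5 chain of the classical fibronectin receptor, was at 42.2 to 53.2 TPM untreated and 42.1 to 55.8 TPM with E, a change of 0.07 that missed the threshold (adjusted p = 0.117). ITGA1, another collagen-binding chain, did not exceed 4.98 TPM in any library. As a description of the mixture, ITGA6 made up a median of 42.0% of the summed TPM of the 6 α chains untreated and 10.5% with E, while ITGAV made up 5.27% and 27.0%. Their sum went from a median of 622 to 246 TPM.

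The β chains included 1 that fell, 2 that rose and 1 that did not pass the test. ITGB1, the partner of most α chains here and the most abundant integrin chain of the list, was at 353 to 472 TPM untreated and 396 to 492 TPM with E. Its ranges overlapped, and the change of 0.14 passed the test (adjusted p = 0.000736). ITGB4, which pairs with α6 alone, was at 120 to 144 TPM and 121 to 145 TPM, a change of -0.02 with an SE of 0.04 (adjusted p = 0.571). Within the α6β4 pair the change was thus -3.27 for one chain and -0.02 for the other, a difference that was not itself tested. Of the αV partners, ITGB5 fell by 0.83 (adjusted p = 3.9e-09), from between 95.0 and 115 TPM to between 47.6 and 69.9 TPM.

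ITGB6, the β6 chain, which is largely epithelial and activates latent TGF-β (ENSG00000115221, chromosome 2, 160099666 to 160200313, minus strand), rose from between 22.5 and 38.2 TPM (median 30.0) to between 41.3 and 68.3 TPM (median 58.4). Its change of 0.88 (SE 0.03, adjusted p = 7.03e-12, higher in 10 of 10 lines) varied little, between 0.80 and 0.98. ITGB6 therefore held a median of 22.9% of the ITGB5 and ITGB6 sum untreated and 50.1% with E. ITGB8, the αV partner β8, stayed under the filter, but its untreated values of 2.65 to 5.29 TPM and its values with E of 6.91 to 10.7 TPM did not overlap. ITGB3 did not exceed 2.27 TPM in any library.

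Laminins are trimers of an α, a β and a γ chain. LAMA3, the α3 chain of epithelial laminin-332, fell by 0.80 (adjusted p = 2.52e-11), from 117 to 141 TPM down to 63.6 to 89.4 TPM. LAMB3, the β3 chain of the same trimer, fell by 0.50 (adjusted p = 1.65e-07), from 167 to 225 TPM down to 122 to 157 TPM. LAMA4, another α chain, fell by 0.62 (adjusted p = 3.64e-08), from between 56.3 and 74.8 TPM to between 36.9 and 59.2 TPM, and 36.5% of its TPM was assigned to transcripts under 1000 nucleotides.

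LAMB2, the β2 chain, rose by 0.83 (adjusted p = 4.89e-09), from 58.0 to 95.4 TPM up to 121 to 166 TPM. Transcripts under 1000 nucleotides held 52.9% of its TPM. LAMB1, the β1 chain, was 0.16 higher (adjusted p = 0.00198), with overlapping ranges of 107 to 172 TPM and 125 to 158 TPM. LAMA5, the α5 chain, did not pass (0.03, adjusted p = 0.731), at 133 to 271 TPM and 136 to 218 TPM, and 51.6% of its TPM was in transcripts under 1000 nucleotides. LAMC1, the γ1 chain shared by most laminins, did not pass either (0.07, adjusted p = 0.23), at 72.2 to 113 TPM and 85.8 to 98.9 TPM. LAMB2 made up a median of 19.0% of the summed TPM of the 3 β chains listed untreated and 33.8% with E, and LAMB3 48.9% and 32.9%.

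FN1, which encodes fibronectin (ENSG00000115414, chromosome 2, 215360440 to 215436172, minus strand), lay between 86.2 and 145 TPM untreated with a median of 119 TPM, and between 261 and 418 TPM with E with a median of 308 TPM. The groups were far apart, with a rise of 1.39 (SE 0.05, adjusted p = 2.24e-12) in 10 of 10 lines, or 2.62-fold. The type IV collagen chains of the basement membrane were low throughout, COL4A1 between 1.35 and 4.44 TPM and COL4A2 between 0.212 and 2.66 TPM.

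By TPM per gene, one paralog fell and another rose in the kindlins, tensins, parvins and talins. Kindlins bind the β chain's tail beside talin. FERMT1, kindlin-1, the kindlin typical of epithelia (ENSG00000101311, chromosome 20, 6074845 to 6123544, minus strand), went from 31.0 to 51.2 TPM (median 34.9) to 6.73 to 12.7 TPM (median 9.56), a change of -1.85 (SE 0.07, adjusted p = 2.93e-12) in 10 of 10 lines. FERMT2, kindlin-2, the more widely expressed form, rose by 0.78 (adjusted p = 7.3e-09), from between 6.66 and 13.4 TPM to between 13.1 and 20.3 TPM. FERMT2 thus held between 17.5% and 25.9% of the summed TPM of FERMT1 and FERMT2 in every untreated library. With E it held between 61.5% and 71.5% in every library, while the sum of the pair went from a median of 44.0 to 28.4 TPM.

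Tensins tie integrin tails to actin, except TNS4, which lacks the actin-binding part of the others. In mammary epithelial cells EGF is known to lower TNS3 and raise TNS4. TNS4 (ENSG00000131746, chromosome 17, 40475828 to 40501597, minus strand) went from 27.5 to 35.8 TPM (median 31.2) to 6.57 to 9.80 TPM (median 8.09), a change of -1.84 (SE 0.07, adjusted p = 5.54e-12) in 10 of 10 lines. TNS3 (ENSG00000136205, chromosome 7, 47275154 to 47582558, minus strand) went from 33.4 to 65.4 TPM (median 37.2) to 94.3 to 130 TPM (median 103), a rise of 1.39 (SE 0.06, adjusted p = 1.94e-11) in 10 of 10 lines. TNS3 held a median of 49.5% of the summed TPM of TNS1, TNS3 and TNS4 untreated and 86.6% with E, and TNS4 41.3% and 6.88%. TNS1, under the filter, was at 3.67 to 8.40 TPM untreated and 4.50 to 9.58 TPM with E.

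ILK, the pseudokinase at the centre of the ILK, PINCH and parvin complex, rose by 0.63 (adjusted p = 2.51e-09), from 47.5 to 59.0 TPM up to 65.9 to 88.5 TPM. PARVB, β-parvin (ENSG00000188677, chromosome 22, 43999211 to 44172949, plus strand), went from 33.4 to 54.9 TPM (median 41.2) to 8.17 to 19.5 TPM (median 13.0), a change of -1.64 (SE 0.09, adjusted p = 4.42e-10) in 10 of 10 lines. Transcripts under 1000 nucleotides held 32.9% of PARVB TPM. The transcript with the most TPM, PARVB-203 of 1591 nucleotides, went from a median of 22.4 to 6.57 TPM. PARVB-202, of 560 nucleotides, went from 12.5 to 2.39 TPM. PARVA, α-parvin, rose by 0.37 (adjusted p = 6.01e-07), from between 22.5 and 26.4 TPM to between 25.9 and 36.2 TPM. PARVA accordingly made up between 29.1% and 44.0% of the summed TPM of PARVA and PARVB untreated and between 57.1% and 79.8% with E. LIMS1, which encodes PINCH1, was at 31.5 to 42.0 TPM and 25.9 to 47.6 TPM, a change of 0.03 (adjusted p = 0.718).

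Talin links integrin tails to actin and switches integrins on. TLN1, the main form, rose by 0.33 (adjusted p = 1.69e-07), from between 40.01 and 57.9 TPM to between 47.8 and 77.1 TPM. TLN2 was 0.80 lower (adjusted p = 0.000553), with ranges of 11.4 to 24.8 TPM and 6.87 to 17.7 TPM that overlapped. It was lower in 9 of 10 lines, and 57.4% of its TPM lay in transcripts under 1000 nucleotides. The one with the most TPM, TLN2-208, has 306 nucleotides and is not annotated as protein-coding.

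**Figure D2:**
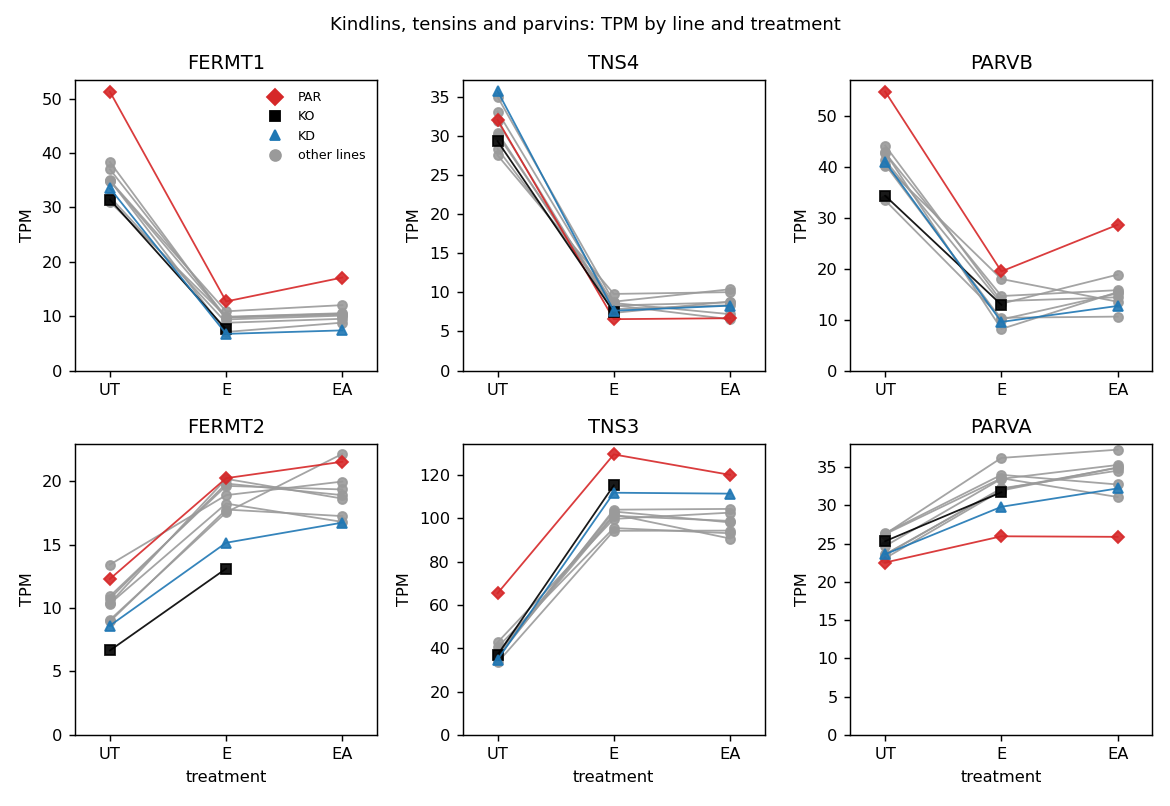
TPM of the paired paralogs of kindlin (FERMT1, FERMT2), tensin (TNS4, TNS3) and parvin (PARVB, PARVA) in each line under UT, E and EA, with lines joining the libraries of one cell line and each axis starting at 0. The upper gene of each pair falls with E and the lower one rises, PAR (red) stands above the other lines for FERMT1, PARVB and TNS3, and KO (black) is the lowest line for FERMT2.

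All members of the actin cross-linker and LIM groups rose. FLNA, filamin A, the most abundant member of the list, rose by 0.74 (adjusted p = 4.58e-11), from between 743 and 886 TPM to between 1234 and 1482 TPM. ACTN1 and ACTN4, the α-actinins that bundle actin, rose by 0.63 (adjusted p = 2.71e-08) and 0.61 (adjusted p = 2.1e-09). ACTN1 went from 230 to 322 TPM up to 354 to 447 TPM without overlap, and ACTN4 from 271 to 442 TPM up to 438 to 543 TPM with overlap.

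ZYX, zyxin (ENSG00000159840, chromosome 7, 143381080 to 143391111, plus strand), lay between 56.0 and 66.9 TPM untreated (median 64.4) and between 112 and 130 TPM with E (median 118). Its rise of 0.91 (SE 0.04, adjusted p = 7.83e-12, 10 of 10 lines) was among the most even over the lines, between 0.77 and 1.04. TGFB1I1, which encodes the focal adhesion LIM protein Hic-5 (ENSG00000140682, chromosome 16, 31471585 to 31477960, plus strand), lay between 13.9 and 24.5 TPM (median 17.7) and between 19.3 and 46.0 TPM (median 36.0), and rose by 0.90 (SE 0.08, adjusted p = 9.15e-08) in 10 of 10 lines. Its ranges overlapped because of PAR, whose value with E was the lowest. LPP, a relative of zyxin, rose by 0.71 (adjusted p = 0.000157) in 9 of 10 lines, from between 17.4 and 39.7 TPM to between 30.1 and 49.2 TPM, and 58.4% of its TPM was in transcripts under 1000 nucleotides, the largest share among the members tested. PDLIM7 rose by 0.54 (adjusted p = 3.59e-07), from between 164 and 217 TPM to between 213 and 333 TPM.

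Of the GIT and PIX scaffolds, which recruit Rac and Arf regulators to adhesions, ARHGEF7 (β-PIX) rose by 0.39 (adjusted p = 7e-05) and GIT2 by 0.27 (adjusted p = 0.000115). GIT1 changed by 0.01 (adjusted p = 0.869), with 57.1 to 69.2 TPM over the untreated and E libraries. GIT2 was between 15.5 and 24.8 TPM and ARHGEF7 between 15.8 and 30.8 TPM in the same libraries. The caveolins CAV1 and CAV2, coat proteins of membrane invaginations, rose by 0.58 (adjusted p = 1.59e-09) and 0.56 (adjusted p = 9.65e-09). CAV1 went from 574 to 749 TPM up to 841 to 1102 TPM, and CAV2 from 97.3 to 129 TPM up to 143 to 177 TPM, both without overlap.

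RefSeq promoter sequences (GRCh38.p14, 250 bases before to 50 after the annotated start) were found for 39 of the 45 members, and in 31 of these that start lay within 500 bases of the start of the transcript with the most TPM. FERMT1, TNS4, ITGA3, ITGB4, ITGB3 and PARVA had no entry. Both strands were searched for the AP-1 element TGANTCA, the TEAD element GGAATG and the CArG box of serum response factor, and hits of different elements were allowed to overlap. AP-1 was found in 4 of 39 members (ACTN4, GIT1, ITGA5 and LAMA3), against 7.76% of 27305 promoters, TEAD in 2 (ITGA5 and ITGB1), against 14.0%, and the CArG box in 2 (FLNA and ITGB6), against 1.29%. GC content of the members' promoters had a median of 71.7% and went from 31.7% in ITGB6 to 83.3% in LIMS1, beside a median of 58.3% over all promoters.

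Shown are the promoters of ITGA6, the member with the largest change, which holds none of the 3 elements, of LAMA3, which fell with E and holds AP-1 elements starting at -125 and -69 from the start, of ITGA5, which did not pass the test and holds AP-1 at -6 and TEAD at -82, and of ITGB6, which rose and holds a CArG box at -60. Capitals mark the elements, sequences read 5′ to 3′ along the gene's strand, and a match is a description of letters, not a bound site.
ITGA6 promoter (chr2:172427086-172427385, plus strand): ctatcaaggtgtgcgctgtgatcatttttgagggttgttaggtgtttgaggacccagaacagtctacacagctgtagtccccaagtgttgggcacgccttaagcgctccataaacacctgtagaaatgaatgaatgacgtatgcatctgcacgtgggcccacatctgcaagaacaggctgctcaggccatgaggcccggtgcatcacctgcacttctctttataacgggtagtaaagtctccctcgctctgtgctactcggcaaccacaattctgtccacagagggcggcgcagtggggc
LAMA3 promoter (chr18:23872770-23873069, plus strand): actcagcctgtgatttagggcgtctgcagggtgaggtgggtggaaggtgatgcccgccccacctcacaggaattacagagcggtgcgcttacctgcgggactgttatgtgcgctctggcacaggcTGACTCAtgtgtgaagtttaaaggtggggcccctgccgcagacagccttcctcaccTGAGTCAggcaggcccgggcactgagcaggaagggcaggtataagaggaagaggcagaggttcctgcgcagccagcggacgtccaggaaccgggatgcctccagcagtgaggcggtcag
ITGA5 promoter (chr12:54419217-54419516, minus strand): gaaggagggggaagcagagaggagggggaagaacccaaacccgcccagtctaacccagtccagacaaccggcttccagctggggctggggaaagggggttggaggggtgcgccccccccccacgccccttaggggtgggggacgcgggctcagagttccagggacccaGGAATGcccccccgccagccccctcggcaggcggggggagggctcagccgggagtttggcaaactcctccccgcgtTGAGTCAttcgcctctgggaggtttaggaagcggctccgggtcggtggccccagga
ITGB6 promoter (chr2:160200223-160200522, minus strand): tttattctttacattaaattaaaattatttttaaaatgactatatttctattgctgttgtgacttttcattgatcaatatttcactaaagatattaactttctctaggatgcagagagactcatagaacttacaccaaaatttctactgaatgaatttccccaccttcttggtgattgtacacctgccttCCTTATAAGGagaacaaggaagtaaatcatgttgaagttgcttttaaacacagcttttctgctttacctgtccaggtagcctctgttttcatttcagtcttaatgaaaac

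Whether E also shifted the balance of transcripts within a gene was asked for the 9 kept members with at least 2 transcripts that each held 20% or more of the gene's TPM. These shares are the authors' assignments of reads among overlapping transcripts. By the exact sign-flip test (two-sided) of within-line differences over 10 lines, 0 of the 9 passed 0.05 with adjustment over all 3334 genes that met the same rule, of which 9.78% passed, and 0 passed with adjustment over the 9 alone. An unadjusted p under 0.05 was met by 3 of them, against 26.6% of these genes: CAV1-201, whose share changed by -2.11 percentage points (exact p = 0.0137, adjusted p = 0.085 over all genes), ITGB4-203, 3.27 points higher (exact p = 0.0234, adjusted p = 0.12), and LPP-220, 7.54 points higher (exact p = 0.0293, adjusted p = 0.137). The outcome depended on which transcripts were followed. With the second transcript of each gene 2 of 9 passed, against 11.8% of 3334 genes, and 5 had an unadjusted p under 0.05, against 26.9%. With genes whose second transcript held at least 10% of the TPM 3 of 22 passed, against 11.8% of 6395 genes, and 12 had an unadjusted p under 0.05, against 27.1%. The share of members that passed in this last set was near that of all genes.

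Chosen after their values were seen, TGFB1I1, TNS3 and CAV1 are given as examples. TGFB1I1-203 had the largest shift among the 22 members of the second of these alternatives, from between 38.8% and 68.8% of the gene's TPM untreated to between 53.8% and 76.8% with E, 16.4 points higher in the mean and higher in 10 of 10 lines (exact permutation p = 0.00195, adjusted p = 0.0265). TNS3-201, a protein-coding transcript of 7618 nucleotides, held between 63.1% and 76.2% of the gene's TPM untreated and between 78.8% and 85.2% with E, 11.5 points higher in the mean and higher in 10 of 10 lines (exact permutation p = 0.00195, which like the value before it is the smallest that 1024 sign flips allow, adjusted p = 0.0265). CAV1-202 held between 28.9% and 35.1% untreated and between 34.5% and 38.8% with E, 5.11 points higher in 10 of 10 lines (exact permutation p = 0.00195, adjusted p = 0.0268). For ITGA6 both main transcripts fell, ITGA6-201 from a median of 190 to 18.8 TPM and ITGA6-202 from 43.4 to 4.78 TPM.

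The next question was what activation of AXL by AF154 added on top of erlotinib. It was tested in the 8 lines other than KO and KD, called competent here: PAR, WT and the 6 Y-to-F lines. That word refers to the kinase alone. For proliferation and apoptosis the study found Y643F and Y750F to resemble KO or KD. In all of the 8 lines except PAR most cells lacked the receptor, by the study's estimate. The changes below are averages over cells with and without it, and the effect of that mixture was not tested. Of the 39 members 1 passed, against 2.36% of all genes, and 7 had an unadjusted p under 0.05, as did 1895 of the 9085 genes. The member that passed was ITGA6, higher with EA in 8 of 8 lines by 0.33 (SE 0.06, adjusted p = 0.0236 by limma), or 1.26-fold. The median change of the 39 members was 0.00, beside 0.02 over all genes.

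ITGA6 with EA stood at 58.2 TPM in PAR, 45.0 TPM in Y643F, 38.5 TPM in WT, 34.6 TPM in Y634F, 32.6 TPM in Y726F, 32.1 TPM in Y698F, 31.6 TPM in Y750F and 28.0 TPM in Y821F. With E alone the same lines had 38.3, 29.7, 33.7, 26.0, 27.8, 27.8, 27.4 and 23.1 TPM. The ranges of the groups overlapped although every line rose, by between 0.19 in WT and 0.59 in PAR. The level with EA was between 10.4% and 19.1% of that of the untreated line, so it stayed far under the untreated range. In KD, which is outside the test, ITGA6 went from 21.6 to 19.8 TPM, a change of -0.12 that lies under all 8 others and has no replicate error. The KD change lay above or below those of all 8 lines in 5 of 39 members, against 19.0% of all genes, and ITGA6 was 1 of these 5.

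The call was a close one. It was lost without the line as a block (adjusted p = 0.349), with the KD pair included (0.0545) and without PAR (0.0568), Y634F (0.077) or Y643F (0.0589), within a range of 0.0171 to 0.349 over the alternatives.

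**Figure D3:**
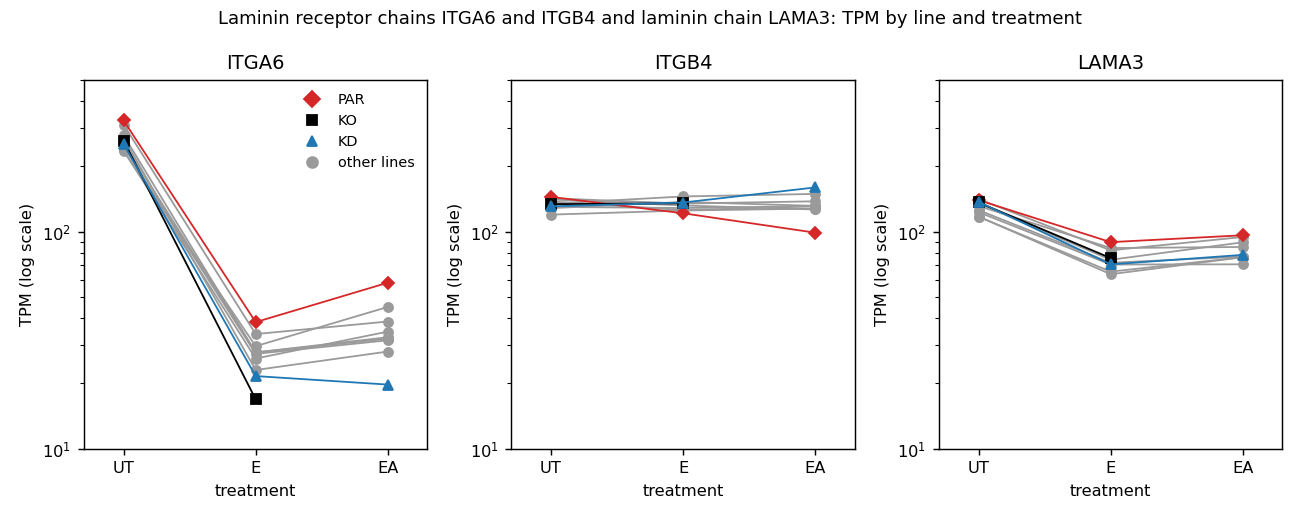
TPM on a log axis of ITGA6 and ITGB4, the chains of the α6β4 laminin receptor, and LAMA3, a laminin chain, in each line under UT, E and EA. ITGA6 drops from 235 TPM or more to at most 38.3 TPM with E and is higher with EA in the 8 competent lines but not in KD (blue), while ITGB4 stays between 98.8 and 160 TPM.

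The 4 members with the next smallest adjusted p missed the threshold. LAMA3 was 0.14 higher with EA in 8 of 8 lines (adjusted p = 0.0828), at 63.6 to 89.4 TPM with E and 70.7 to 96.2 TPM with EA. FERMT1 was 0.16 higher in 8 of 8 lines (adjusted p = 0.198). LAMA4 was 0.16 lower (adjusted p = 0.101) and ITGB5 0.14 lower (adjusted p = 0.102), each in 7 of 8 lines. With E alone, ITGA6 and each of these 4 genes had fallen by 0.62 or more. The 2 comparisons share the libraries with E. The 3 members that rose most with E, TNS3 (-0.05, adjusted p = 0.461), FN1 (-0.10, adjusted p = 0.249) and ITGAV (0.02, adjusted p = 0.855), had no call with EA.

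**Figure D4:**
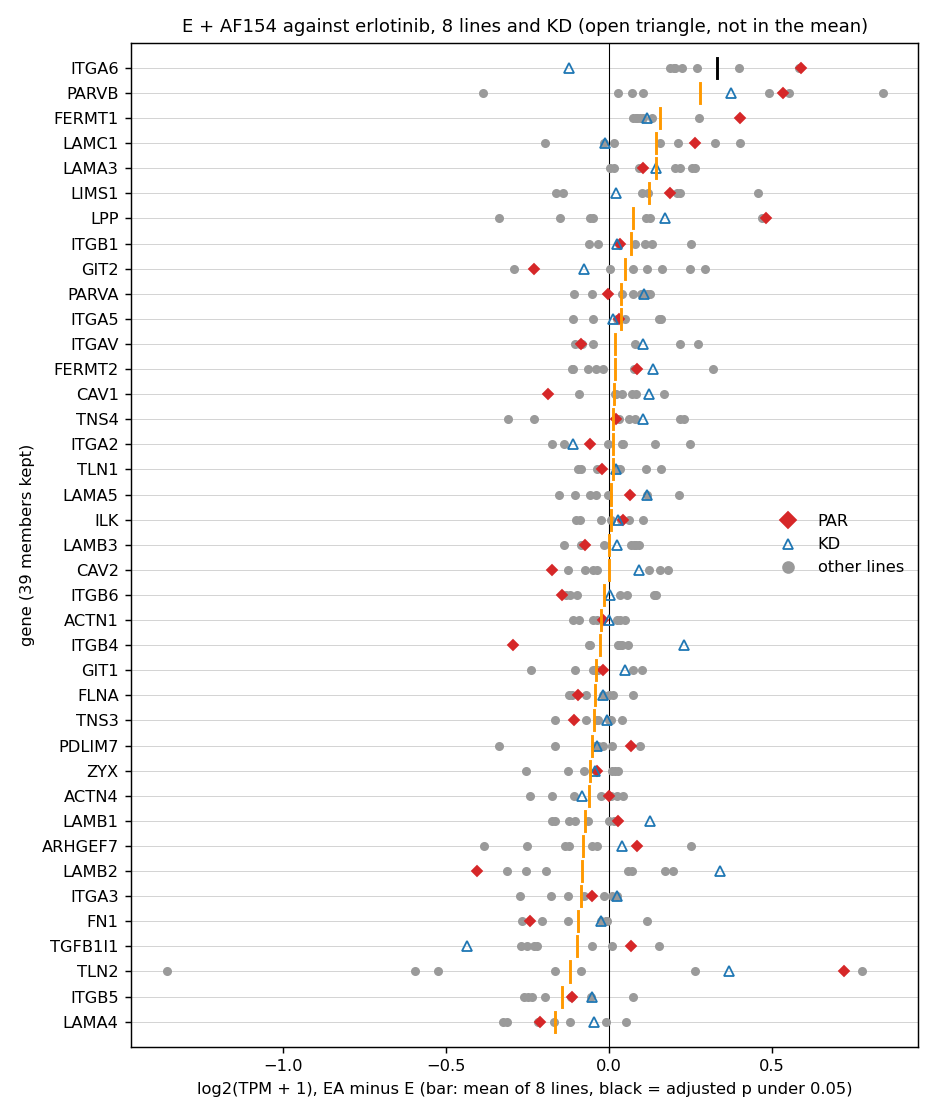
Change from E to EA in each of the 8 competent lines (points) and in KD (open triangle, not in the mean) for the 39 members on the log2(TPM + 1) scale, ordered by the mean of 8 lines (vertical bar, black where the adjusted p is under 0.05). ITGA6 is the only member with a black bar, at 0.33, and KD lies to the left of all its points.

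PAR cells differ from the other 9 lines in that those all passed through the knockout and mostly through transduction. PAR is 1 line with 1 library per treatment, so the fit below sets 1 difference against 9 and takes its spread to be that of the other lines. Its SEs and adjusted p-values hold no estimate of the spread within PAR, and a call says only that this pair of libraries stood apart. A fit of the E response with a term for PAR called 7 of 39 members, against 5.91% of all genes. None was higher in PAR, against 0.638% of all genes, and 7 were lower, against 5.27%. Over all genes the PAR term had a median of -0.12, so the values below are also given relative to it. In PAR with E the mitochondrially encoded genes held 17.4% of TPM, against 12.3% to 14.2% in the other lines with E, and with those genes left out 5 members passed.

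LPP went from 39.7 to 30.1 TPM in PAR, a change of -0.39, while the other lines rose by between 0.48 and 1.32. The difference was -1.22 (SE 0.29, adjusted p = 0.0308), or -1.10 relative to all genes. LIMS1 changed by -0.68 in PAR and by between -0.10 and 0.33 elsewhere (difference -0.79, SE 0.17, adjusted p = 0.0171, or -0.66 relative to all genes). LAMA5 changed by -0.63 in PAR, from 271 to 175 TPM, and by between -0.08 and 0.34 elsewhere (difference -0.73, SE 0.14, adjusted p = 0.0104, or -0.61 relative to all genes). Much of the TPM of LPP and LAMA5 is in short transcripts, as given above. In LPP, PAR went down while every other line went up, and in LIMS1 and LAMA5 it lay under every other line.

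In the next 3 the direction was shared and the size was not. ITGA2 fell by 2.28 in PAR and by between 1.39 and 1.84 elsewhere (difference -0.66, SE 0.15, adjusted p = 0.0263, or -0.54 relative to all genes). ACTN1 changed by 0.13 in PAR and by between 0.61 and 0.80 elsewhere (difference -0.55, SE 0.08, adjusted p = 0.00284, or -0.43 relative to all genes). ITGA3 fell by 1.72 in PAR and by between 1.09 and 1.40 elsewhere (difference -0.48, SE 0.11, adjusted p = 0.0295, or -0.36 relative to all genes). ACTN4, the seventh, differed by -0.35. With library medians centred 3 of the 7 passed, and ACTN1, LAMA5 and LIMS1 passed under each of the 15 alternatives. Centring turned the split over all genes from 58 higher and 479 lower to 292 higher and 158 lower, and among members it gave 0 higher and 3 lower.

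PAR also differed in level. In 13 of 39 members PAR lay above or below every other line under all 3 treatments, against 20.5% of all genes, and 6 were above and 7 below. ITGA2 in PAR was at 118, 23.6 and 22.6 TPM under UT, E and EA, against lowest values of 150, 42.5 and 42.2 TPM in the other lines, a mean gap of -0.91 to their mean. TGFB1I1 was at 13.9, 19.3 and 20.2 TPM against lowest values of 15.9, 26.2 and 26.6 TPM (mean gap -0.69). ITGB6 was at 22.5, 41.3 and 37.2 TPM against lowest values of 27.3, 51.0 and 53.6 TPM (mean gap -0.58).

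On the other side, PARVB in PAR was at 54.9, 19.5 and 28.7 TPM against highest values of 44.2, 18.0 and 18.9 TPM elsewhere (mean gap 0.68). FERMT1 was at 51.2, 12.7 and 17.1 TPM against highest values of 38.3, 10.9 and 12.02 TPM (mean gap 0.60). ITGA6 was at 325, 38.3 and 58.2 TPM against highest values of 311, 33.7 and 45.0 TPM (mean gap 0.58). The 7 remaining members were TNS3, LAMB1 and ACTN4, above, and TLN1, PARVA, LAMA4 and ILK, below, with gaps between 0.26 and 0.47 in size. LAMA4 with E was barely outside, at 36.91 TPM beside 36.93 TPM in the nearest line. Being outside by more than 0.2 on the log2 scale under each treatment was met by 3 members.

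**Figure D5:**
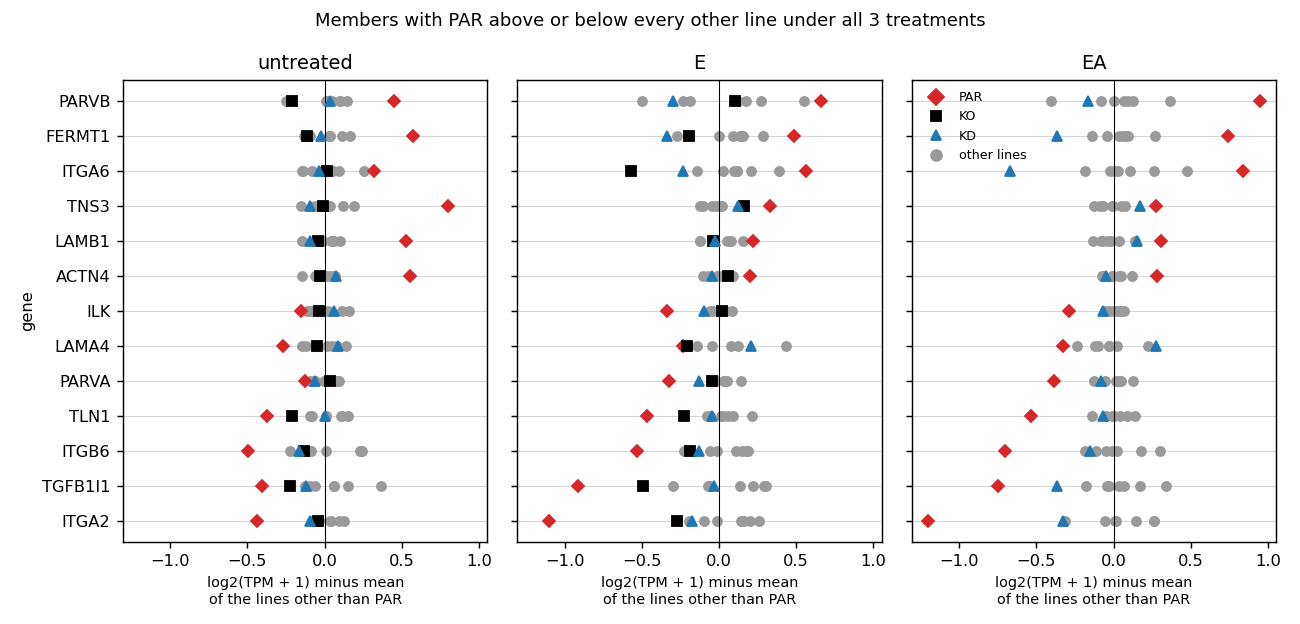
Level of each line on the log2(TPM + 1) scale relative to the mean of the lines other than PAR, under UT, E and EA, for the 13 members in which PAR (red diamonds) lay outside all other lines under each treatment. PAR is above for 6 genes, from ACTN4 to PARVB, and below for 7, from ILK to ITGA2.

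KO, the line with no delivered receptor, lay under all 8 transduced lines both untreated and with E in 5 of 39 members, against 6.81% of genes above or below. FERMT2 in KO was at 6.66 and 13.1 TPM against lowest values of 8.62 and 15.2 TPM in the transduced lines. TGFB1I1 was at 15.9 and 26.2 TPM against 17.1 and 30.1 TPM, and TLN1 at 44.8 and 56.5 TPM against 48.6 and 62.8 TPM. ITGA3 was at 108 and 43.3 TPM against 117 and 45.6 TPM, and ACTN1 at 230 and 356 TPM against 234 and 359 TPM. No member lay above, and none was outside by more than 0.2 under both treatments. PAR, which has its own AXL, lay lower still than KO for TGFB1I1 (13.9 and 19.3 TPM) and TLN1 (40.01 and 47.8 TPM). PAR lay above KO for FERMT2 (12.3 and 20.3 TPM) and ITGA3 (162 and 48.5 TPM). For ACTN1 PAR was above KO untreated (322 TPM) and just under it with E (354 TPM).

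KD lay under WT and the 6 Y-to-F lines under all 3 treatments in 3 of 39 members, against 1.71% of genes above or below. They were FERMT2, at 8.62, 15.2 and 16.7 TPM against lowest values of 8.95, 17.6 and 16.8 TPM, ITGB5, at 101, 47.6 and 45.9 TPM against 102, 49.4 and 47.3 TPM, and ACTN1, at 234, 359 and 359 TPM against 237, 380 and 378 TPM. FERMT2 and ACTN1 were thus lowest in KO and next in KD among the lines derived from KO, both untreated and with E. The gaps were small. With library medians centred 0 of the 3 remained outside, and with 1 library per line and treatment neither line's gap has a replicate error.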

How the data were processed

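RNA of 10 PC9 lines was measured under 3 treatments, 29 libraries in all, each mapped by its title. The authors deposited TPM per transcript, and the submitters' notes name kallisto and GRCh38 without a version. Annotation and strand handling are not given in the sources used here. TPM keeps no depth, so precision came from the spread between lines. Of 188753 transcripts, 169797 matched GENCODE release 29 by identifier and were summed to 35579 genes (97.0% to 97.4% of TPM). The filter, a mean of 10 TPM or more, kept 9085 genes and log2(TPM + 1) was tested.

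E and untreated, EA and E, and the PAR response were fitted with limma 3.58.1 (trend) in R 4.3.3 with Benjamini-Hochberg adjustment over all 9085 genes and a threshold of 0.05. The first 2 fits had the line as a block, since the libraries of a line come from the same cells. Deviations of same-line libraries correlated at 0.10 to 0.60 for untreated and E and at 0.12 to 0.74 for E and EA, while libraries of different lines reached up to 0.20 in both. Per the study's methods the treated cells of a line were kept in separate dishes, and with 1 library per line and treatment p-values measure the spread between lines. Positions of a single line against others were counted with no test. Transcript shares were tested by exact sign flips, adjusted over the members as planned and, chosen after seeing the data, over all genes that met the same rule, with numpy 2.4.6 and pandas 2.3.3 in Python 3.11.15, and figures were drawn with matplotlib 3.10.9.

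The members and lists were chosen with earlier results of these data known. Every member is given by its range or, where low throughout, by its highest value. Full statistics go to the 12 largest changes among calls with E, the calls and in any case the 5 smallest adjusted p with EA, the 6 largest PAR response calls, the 6 largest PAR gaps in level, and the KO and KD members outside the range. Protein motifs planned for the integrin tails were not analysed here. Alternatives were a pseudocount of 0.1, other filters, centred medians, quantile normalization, mitochondrially encoded genes left out, no block, other sets of lines, other transcripts and each line left out. The fits were tested on simulated data in which 200 of 9085 genes were shifted. Of shifts of 0.5 (log2), E against untreated called 194, EA against E 179 and the PAR response 31. Of shifts of 1 they called 199, 197 and 164. The PAR response fit thus missed most shifts of 0.5.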

Additional observations from a re-analysis of the deposited data

Results flagged for a closer look

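For each of 21 named members, the change of every line was compared with the others for E against untreated and for EA against E. In 42 such groups 9 had a highest or lowest line far from the rest by Dixon's criterion, which chance meets in about 1 of 20 groups. That rate is no yardstick for these 9, since 6 of them were PAR with E in the 6 members named for their PAR response.

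The 6 PAR values were ITGA2 at -2.28 (other lines -1.84 to -1.39), ITGA3 at -1.72 (-1.40 to -1.09), LPP at -0.39 (0.48 to 1.32), LIMS1 at -0.68 (-0.10 to 0.33), LAMA5 at -0.63 (-0.08 to 0.34) and ACTN1 at 0.13 (0.61 to 0.80). In WT with E, LAMA4 changed by -0.24 (other lines -0.81 to -0.51) and FERMT2 by 0.46 (0.68 to 0.92). In Y634F with EA, FERMT2 changed by 0.32 (other lines -0.11 to 0.09).

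The E response of PAR differed from that of the other lines, by the PAR term in limma, in 7 members: LPP (-1.22, adjusted p = 0.0308), LIMS1 (-0.79, adjusted p = 0.0171), LAMA5 (-0.73, adjusted p = 0.0104), ITGA2 (-0.66, adjusted p = 0.0263), ACTN1 (-0.55, adjusted p = 0.00284), ITGA3 (-0.48, adjusted p = 0.0295) and ACTN4 (-0.35, adjusted p = 0.0387). PAR is 1 line with 1 library per treatment, so these adjusted p-values take its spread to be that of the other lines.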

How the results depend on the processing

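The members called with E numbered between 28 and 35 under every alternative, 28 of 34 when at least 10 TPM was required in every library, and between 33 and 34 with each line left out. For the 12 members with the largest changes with E, direction and call held in every alternative that kept them. Leaving out the line as a block changed no call count there (33). For EA against E the 1 call became 0 without the replicate block (all genes 9 called in place of 214), 0 with the KD pair (all genes 120), and 0 to 1 with each line left out, where it was lost without PAR, Y634F or Y643F. All-gene counts without 1 line ran from 10 (without Y634F) to 188 (without Y726F), and a filter of 1 TPM left 67. Centring moved the all-gene split with EA from 171 higher and 43 lower to 133 and 72. The PAR response gave 3 calls with medians centred, 4 with quantile normalization (all genes 243 in place of 537) and 6 to 9 with each line left out. PAR lay outside in 3 members by more than 0.2 (log2) and in 13 to 15 with each line left out, KO in 0 by more than 0.2 and 5 to 6, and KD in 0 with medians centred, 0 by more than 0.2, and 3 to 4. The lines left out of these 3 counts were chosen after seeing the data. Transcript shares, adjusted over the members alone, gave 5 calls for the second transcript, 8 at 10% of the TPM, and 0 to 1 with each line left out, the 1 without PAR. Adjustment over all genes, added after seeing the data, gave 0, 2 for the second transcript and 3 at 10%. The cause of these changes was not tested. Of 382 refits of 23 named results, 369 kept direction and side of the threshold, 13 fell short of it and 0 reversed. Depth is unknown for TPM and sets no stated limit. Low members such as FERMT2 and TNS4 are those where the added 1 TPM shrinks a change most.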
